A study of Danio rerio with 24 samples.

Results

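The genes of the proteasome, the protease that degrades proteins tagged with ubiquitin, were followed in whole zebrafish embryos around the onset of their own transcription. Members were all gene identifiers whose name starts with psma, psmb, psmc, psmd, psme, psmf or psmg and a digit, and whose mean over the 24 libraries was at least 5 CPM, the counts of a gene scaled to a common library size. The rule gave 49 members, out of 59 identifiers with such a name and 32520 identifiers in all. They comprised 9 alpha ring and 7 beta ring genes of the core particle, 7 ATPase genes (psmc), 17 psmd genes, 4 activator or inhibitor genes (psme and psmf), 3 psmg genes, and 2 genes that carry the prefix without coding for a subunit, PSMC3IP and PSME3IP1.

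Wild-type embryos of the TLAB strain were taken in 6 groups of 4 libraries each, named here by treatment and by hours post fertilisation (hpf). They were oligomycin embryos at 4 hpf and at 3 hpf (1 µM, an inhibitor of the mitochondrial ATP synthase), actinomycin D embryos at 4 hpf and at 3 hpf (10 µg/ml, a DNA-binding inhibitor of transcription), and untreated embryos at 4 hpf and at 3 hpf. Every group was raised in the same salt medium with methylene blue. Per the labels' protocol the inhibitors were in that medium from laying onwards, whereas the series description calls the actinomycin D embryos injected. The study asked whether embryos kept in oligomycin switch on their genes, with actinomycin D as the blocked control. Nothing states whether the 4 libraries of a group came from separate clutches, so p-values measure the spread between these libraries, which may be technical.

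As background, the core particle is a barrel of alpha rings, which gate the entrance, and beta rings, in which PSMB5, PSMB6 and PSMB7 cut the protein chain. The regulatory particle that caps it holds the PSMC ATPases, which unfold substrates and thread them into the barrel, and the PSMD subunits, which bind ubiquitin chains and, through PSMD14, remove them. PSME3 and PSME4 are alternative caps of the core, and PSMF1 binds the core and was first described as its inhibitor. In yeast and mammalian cells PSMG1, PSMG2 and PSMG3 guide the building of the alpha ring, while PSMD5, PSMD9 and PSMD10 hold the ATPases during assembly of the regulatory particle and leave before it is complete. A fish egg carries a store of maternal messenger RNA for such housekeeping machines, which is read and cleared while the embryo's own genome starts up.

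RNA was read with QuantSeq, which sequences the 3′ end of messenger RNA, and the files hold counts per gene. Library totals ran from 1453642 to 3431533 counts, of which 5679 to 10510 fell on the members. CPM below are scaled by edgeR's trimmed mean of M-values (TMM), and all 49 members passed the filter on low counts. As a check of stage, 8 genes known to be switched on in the early zebrafish embryo (vox, ved, vent, sox3, irx7, grhl3, tbx16 and mxtx2) summed to 354 to 1313 CPM in oligomycin embryos at 4 hpf, 2.08 to 73.7 CPM in actinomycin D embryos at 4 hpf and 1339 to 2463 CPM in untreated embryos at 4 hpf. At 3 hpf the same sum was 79.1 to 376 CPM with oligomycin, 1.6 to 3.42 CPM with actinomycin D and 160.1 to 663 CPM untreated. The sum of 9 maternal genes (nanog, pou5f3, sox19b, buc, zp3b, cldnd, h1m, ccnb1 and ccna1) was between 10692 and 13638 CPM in all libraries. Its mean was lowest in untreated embryos at 4 hpf, at 11697 CPM, beside 12345 to 13110 CPM in the other groups. Replicates 1 and 2 of untreated embryos at 4 hpf had 10759 and 10692 CPM, and replicates 3 and 4 had 12985 and 12353 CPM. In these bulk samples of whole embryos, fewer cells of a type and less RNA per cell cannot be told apart.

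On total counts the summed proteasome transcripts took nearly the same share of every library but 1. The 49 members made up 0.315% ± 0.0168 of all counts in oligomycin embryos at 4 hpf, 0.318% ± 0.0102 in actinomycin D embryos at 4 hpf and 0.319% ± 0.0138 in untreated embryos at 4 hpf (SD, n = 4 each). At 3 hpf the shares were 0.337% ± 0.0389 with oligomycin, 0.312% ± 0.00163 with actinomycin D and 0.312% ± 0.00882 untreated. The log2 ratio of oligomycin over untreated was -0.02 at 4 hpf, and that of untreated 4 hpf over untreated 3 hpf was 0.03, both under the pooled SD of 0.08 between libraries of a group. With the TMM scaling used for CPM and tests below, the same ratios were -0.11 and 0.13, above the pooled SD of 0.07 on that scale, so whether the sum differed rests on the scaling. On total counts at 3 hpf the log2 ratio of oligomycin over untreated was 0.11, above the SD of 0.08, and 0.03 without oligomycin replicate 3. That library, the shallowest of all with 1453642 counts, held 0.391%, and no other of the 24 libraries was above 0.340%.

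**Figure D1:**
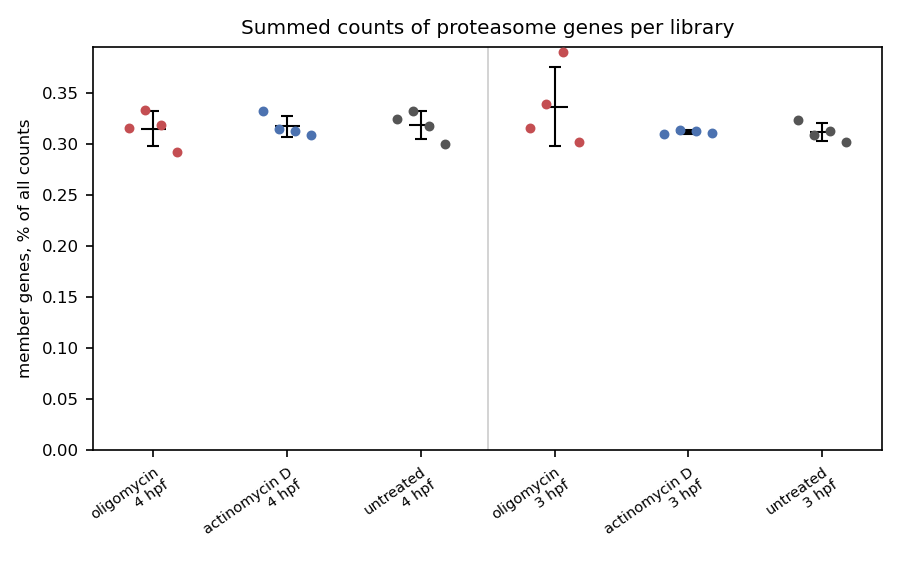
Summed counts of the 49 proteasome genes as a percentage of each library's total (y axis) in the 6 groups (x axis). Points are libraries, the horizontal mark and bar are the group mean and SD (n = 4), and all libraries but oligomycin 3 hpf replicate 3, at 0.391%, lie between 0.293% and 0.340%.

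The range of single members over the 6 groups was mostly narrow. The highest of the 6 group means was less than 1.5 times the lowest for 40 of 49 members (81.6%), and the median ratio was 1.32. Of the 9786 genes with a mean of at least 5 CPM, 57.9% were that steady and the median ratio was 1.44. Such a ratio also grows with noise, and the median SE of untreated 4 hpf against 3 hpf was 0.16 for members and 0.19 for those genes. The median size of the log2 difference was larger for members in oligomycin 4 hpf against 3 hpf (0.162 beside 0.138) and oligomycin against actinomycin D at 3 hpf (0.165 beside 0.134). In the other pairwise comparisons it was smaller for members. A ratio of at least 2 was reached by 2 members (4.08%), PSMD10 at 2.80 and PSMG3 at 2.27, against 16.3% of those 9786 genes. Behind them came PSMA6 (ENSDARG00000013966) at 1.99, PSMD9 at 1.89, PSMG2 at 1.82 and PSMD5 at 1.69. Of the 6 members with the widest range 5 are assembly chaperones, a grouping of PSMD5, PSMD9, PSMD10 and the 3 psmg genes that was made after the values were seen and carries no test. The ATPase gene PSMC1 had the narrowest range, with a ratio of 1.04.

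The normal course between the 2 stages was read from untreated embryos. At 4 hpf against 3 hpf, the quasi-likelihood test of edgeR, with p-values adjusted over 11238 genes by Benjamini and Hochberg, called 8 of 49 members at an adjusted p under 0.05, 3 higher and 5 lower. This was 16.3% of the members, where 27.4% of all genes tested were called, 12.8% higher and 14.6% lower. Of the 6 assembly chaperones, grouped after the values were seen, 4 fell and none rose. Of the 41 members outside that group and the 2 interacting proteins 3 rose and none fell. The split rests on that grouping: by name alone, PSMG3 fell among the psmg genes and PSMD5, PSMD9 and PSMD10 among the psmd genes. The median log2 fold change was -0.66 over the assembly chaperones, 0.13 over all 49 members and 0.00 over all genes. On total counts in place of TMM the split of calls was 0 higher and 6 lower, so the 3 that rose were called only relative to the TMM scaling or DESeq2's size factors. The 4 chaperones were also called lower on total counts. In the fit blocked by library set, which treats the libraries of a set as paired, 11 members were called, 6 higher and 5 lower. The calls gained were the chaperone PSMG1, PSMB5 and the smaller PSMA6 copy, all higher, so that with the block 1 chaperone rose and 4 fell. The 27.4% of all genes belongs to the fit without the block, so it is not the share to set beside these 11. The libraries form 2 series of neighbouring library numbers, each with 2 libraries per group, which the labels do not explain. Each series alone gave 1 call, PSMD10, lower, and no called member changed the sign of its difference in either series in any comparison.

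**Figure D2:**
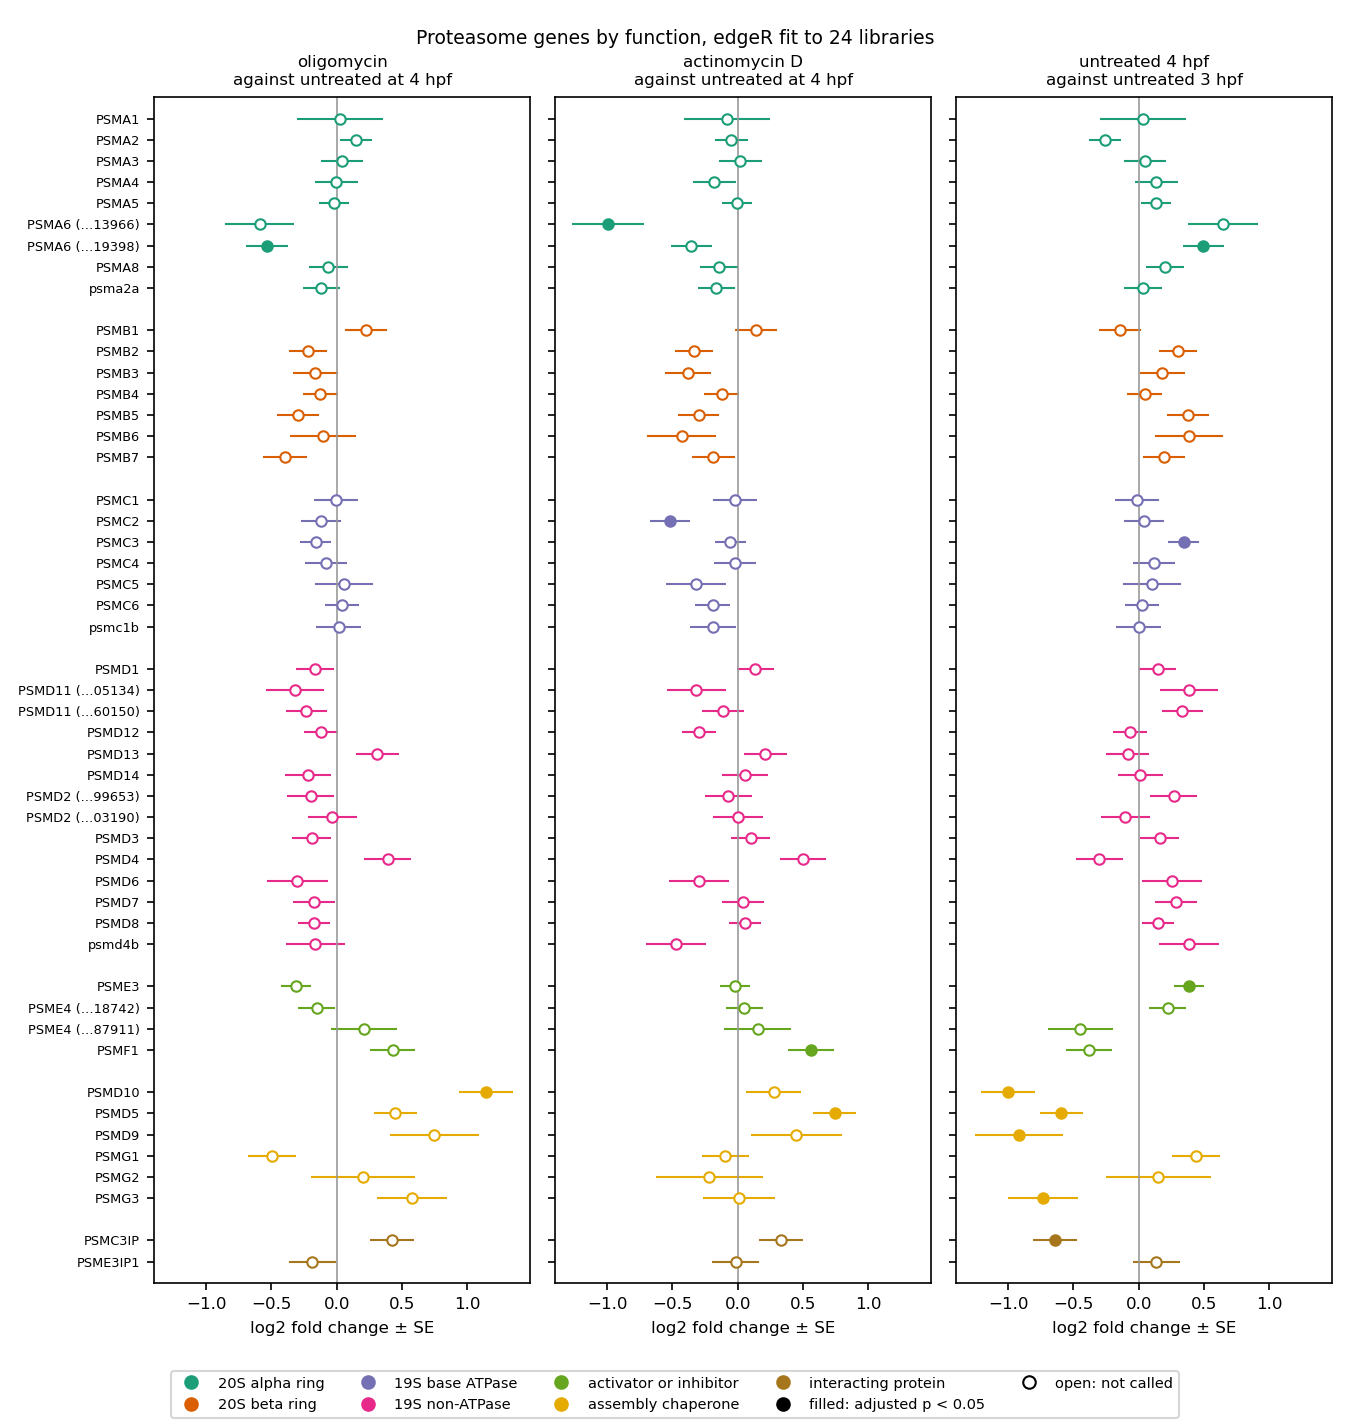
Log2 fold change (x axis, bars show SE) of each of the 49 members (rows, coloured by function) in oligomycin against untreated at 4 hpf, actinomycin D against untreated at 4 hpf, and untreated 4 hpf against untreated 3 hpf. Filled points have an adjusted p under 0.05 (2, 4 and 8 members), and the assembly chaperones PSMD10 and PSMD5 are among the filled points of 2 panels each; the panels share the untreated 4 hpf libraries.

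PSMD10, also known as gankyrin, was the member that moved most. It stood at 20.7, 16.3, 27.2 and 21.6 CPM in untreated embryos at 4 hpf, against 29.2, 41.5, 49.7 and 52.6 CPM in untreated embryos at 3 hpf. The groups did not overlap, since the highest library at 4 hpf, replicate 3, lay just under the lowest at 3 hpf, replicate 1. PSMD10 fell (log2 fold change -0.997, SE 0.21, adjusted p = 0.000845), and the call held with any 1 library left out. The change was -0.92 (adjusted p = 0.0196) in the first library series alone and -1.10 (adjusted p = 0.0212) in the second. In actinomycin D embryos it had 21.9, 24.5, 27.2 and 30.9 CPM at 4 hpf, against 39.4, 39.7, 48.6 and 44.6 CPM at 3 hpf, again without overlap. It fell there too (log2 fold change -0.72, SE 0.20, adjusted p = 0.0244), a call that was lost without actinomycin D 4 hpf replicate 1 (0.0743), actinomycin D 4 hpf replicate 2 (0.0599), actinomycin D 3 hpf replicate 3 (0.0829) or actinomycin D 3 hpf replicate 4 (0.0686), adjusted p in brackets. In oligomycin embryos PSMD10 had 51.7, 49.4, 54.7 and 36.6 CPM at 4 hpf, against 47.9, 53.6, 86.7 and 51.7 CPM at 3 hpf, and those ranges overlapped. That difference was not called (log2 fold change -0.30, SE 0.19, adjusted p = 0.859), with a 95% interval of -0.70 to 0.10 on the log2 scale.

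At 4 hpf PSMD10 averaged 48.1 ± 7.95 CPM in oligomycin embryos, 26.1 ± 3.84 CPM in actinomycin D embryos and 21.5 ± 4.49 CPM in untreated embryos (SD, n = 4 each). All 4 oligomycin libraries, at 36.6 to 54.7 CPM, lay above all untreated libraries, at 16.3 to 27.2 CPM, and above all actinomycin D libraries, at 21.9 to 30.9 CPM. It was higher with oligomycin than untreated (log2 fold change 1.14, SE 0.21, adjusted p = 0.000392), and the call held with any 1 library left out. The difference was 1.44 (adjusted p = 0.00140) in the first library series alone and 0.94 (adjusted p = 0.128) in the second, so it did not pass within the second series. Against actinomycin D it was higher as well (log2 fold change 0.87, SE 0.20, adjusted p = 0.00562). At 3 hpf the log2 difference of oligomycin from untreated was 0.45 (edgeR, adjusted p = 1), and the change of the oligomycin effect between the times was 0.69 (SE 0.28, adjusted p = 0.217). That the fall over time differed between oligomycin and untreated embryos is the same contrast, and it was therefore not called. The summed zygotic genes lay between 354 and 1313 CPM in these oligomycin libraries and between 1339 and 2463 CPM in the untreated ones. In actinomycin D embryos, with at most 73.7 CPM of those genes, PSMD10 fell between the times. The part of the zygotic level in the PSMD10 difference was not tested.

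PSMD9 and PSMD5, the other chaperones of the ATPase base, were lower in untreated embryos at 4 hpf as well. PSMD9 had 6.48, 6.27, 6.99 and 5.82 CPM in untreated embryos at 4 hpf, against 10.1, 14.6, 11.2 and 12.5 CPM in untreated embryos at 3 hpf, without overlap (log2 fold change -0.91, SE 0.34, adjusted p = 0.0450). The call for this low gene was lost without actinomycin D 3 hpf replicate 1 (0.0505), untreated 4 hpf replicate 1 (0.0793), untreated 3 hpf replicate 2 (0.0888), untreated 4 hpf replicate 2 (0.0743), untreated 3 hpf replicate 3 (0.0642), untreated 4 hpf replicate 3 (0.0619), untreated 3 hpf replicate 4 (0.0833) or untreated 4 hpf replicate 4 (0.0908), and also with DESeq2's size factors (adjusted p = 0.0507). PSMD5 had 13.4, 11.9, 12.5 and 15.8 CPM in untreated embryos at 4 hpf, against 21.8, 19.4, 20.5 and 19.6 CPM in untreated embryos at 3 hpf, and every later library lay below every earlier one. It fell (log2 fold change -0.59, SE 0.17, adjusted p = 0.00931), a call that no left-out library removed. In actinomycin D embryos at 4 hpf PSMD5 had 22.4, 24.5, 25.7 and 17.9 CPM, all above the untreated libraries of that time, and it was higher (log2 fold change 0.74, SE 0.17, adjusted p = 0.00229) with any 1 library left out. Oligomycin embryos at 4 hpf had 17.6, 18.8, 18.3 and 18.9 CPM, also above all untreated libraries, but the difference was not called (log2 fold change 0.45, SE 0.17, adjusted p = 0.0556). It passed in the fit blocked by library set (0.44, adjusted p = 0.0456). These 4 hpf comparisons use the same untreated libraries as the comparison over time.

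Among the chaperones of the core particle, only PSMG3 was called. It had 12.5, 19.4, 16.2 and 18.8 CPM in untreated embryos at 4 hpf, against 26.9, 32.0, 18.7 and 33.3 CPM in untreated embryos at 3 hpf, and replicate 3 at 3 hpf lay within the later range (log2 fold change -0.73, SE 0.27, adjusted p = 0.0417). The call was lost without untreated 3 hpf replicate 1 (0.0520), untreated 4 hpf replicate 1 (0.121), untreated 3 hpf replicate 2 (0.0790), untreated 4 hpf replicate 3 (0.0759) or untreated 3 hpf replicate 4 (0.123). In actinomycin D embryos PSMG3 averaged 16.8 ± 4.61 CPM at 4 hpf and 28.1 ± 8.07 CPM at 3 hpf (SD, n = 4 each), a difference that was called only when library set was a blocking term (-0.73, adjusted p = 0.00461; without it -0.75, adjusted p = 0.0695). In the same way it was higher with oligomycin than with actinomycin D at 4 hpf only with the block (0.54, adjusted p = 0.0343; without it 0.57, adjusted p = 0.183). PSMG1 pointed the other way: it averaged 23.0 ± 4.30 CPM untreated at 4 hpf and 16.8 ± 2.10 CPM untreated at 3 hpf, a log2 difference of 0.44 that missed the threshold (adjusted p = 0.0742) and passed with the block (0.43, adjusted p = 0.0449). In oligomycin embryos at 4 hpf PSMG1 had 17.2, 17.7, 15.9 and 14.1 CPM, all below the untreated range of 20.6 to 29.5 CPM. That difference had an adjusted p of 0.0540 and passed with the block (-0.49, adjusted p = 0.0286). PSMG2, the partner of PSMG1, was at 4.50 ± 1.03 CPM untreated at 4 hpf and 4.07 ± 2.49 CPM untreated at 3 hpf, close to the level needed to be a member, and no comparison called it.

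**Figure D3:**
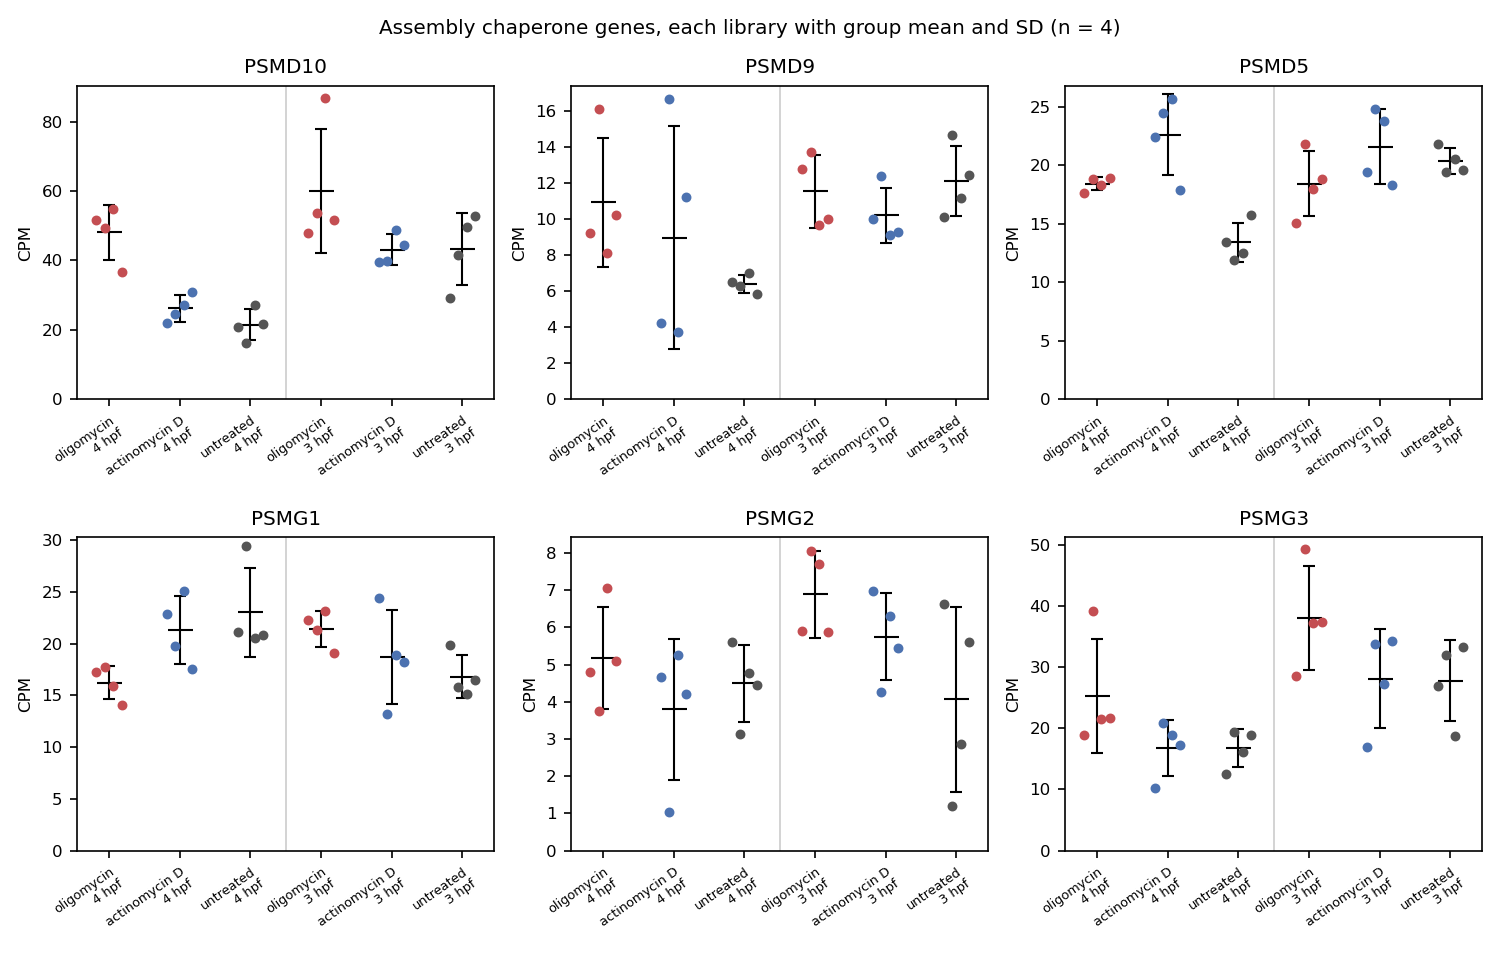
CPM (y axes, each from 0) of the 6 assembly chaperone genes in every library, by group (x axes). Points are libraries with the group mean and SD (n = 4); PSMD10 lies at 36.6 to 54.7 CPM in oligomycin embryos at 4 hpf and at 16.3 to 27.2 CPM in untreated embryos at 4 hpf.

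The 3 members that rose in untreated embryos came from 3 different parts of the machine. PSME3, the nuclear activator cap that degrades some proteins without ubiquitin, had 466, 512, 414 and 385 CPM in untreated embryos at 4 hpf, against 364, 340.0, 330.0 and 323 CPM in untreated embryos at 3 hpf. All later libraries lay above the earlier ones (log2 fold change 0.39, SE 0.12, adjusted p = 0.0138). The call was lost without untreated 4 hpf replicate 1 (0.0749) or untreated 4 hpf replicate 2 (0.119), on total counts (adjusted p = 0.0634) and without the filter (0.0575). In actinomycin D embryos, whose summed zygotic genes reached 73.7 CPM in replicate 4 at 4 hpf and at most 3.42 CPM in the other libraries, PSME3 also rose, with 445, 533, 378 and 398 CPM at 4 hpf, against 311, 354, 314 and 293 CPM at 3 hpf (log2 fold change 0.46, SE 0.12, adjusted p = 0.0112). That call was lost without actinomycin D 4 hpf replicate 2 (0.109) or actinomycin D 3 hpf replicate 4 (0.0528). In oligomycin embryos it had 309.6, 385, 348 and 388 CPM at 4 hpf, against 295, 353, 373 and 331 CPM at 3 hpf, which overlapped and gave a log2 difference of 0.08 (adjusted p = 0.963). Oligomycin against untreated at 4 hpf gave -0.31 (adjusted p = 0.0548), which passed with the block (-0.31, adjusted p = 0.0209). With the block, oligomycin embryos were lower than actinomycin D embryos at 4 hpf (-0.28, adjusted p = 0.0450; without it -0.29, adjusted p = 0.102).

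PSMA6, an alpha ring subunit, is listed under 2 identifiers. The copy ENSDARG00000019398 had 32.8, 35.7, 37.5 and 37.7 CPM in untreated embryos at 4 hpf, against 23.8, 27.7, 29.5 and 21.2 CPM in untreated embryos at 3 hpf, and it rose without overlap (log2 fold change 0.50, SE 0.16, adjusted p = 0.0213). That call was lost without untreated 3 hpf replicate 1 (0.0753), untreated 4 hpf replicate 2 (0.0607) or untreated 3 hpf replicate 4 (0.0868), on total counts (0.0780) and without the filter (0.111). In oligomycin embryos at 4 hpf it had 20.1, 27.9, 29.3 and 22.5 CPM, all below the untreated libraries of that time, and it was lower (log2 fold change -0.53, SE 0.16, adjusted p = 0.0186). The lower value was lost as a call without oligomycin 4 hpf replicate 1 (0.0839) or untreated 4 hpf replicate 2 (0.0582), on total counts (0.0643) and without the filter (0.110). The smaller copy ENSDARG00000013966 had 7.46, 5.21, 4.64 and 5.96 CPM in actinomycin D embryos at 4 hpf, against 12.1, 12.5, 11.4 and 10.3 CPM in untreated embryos at 4 hpf, and was lower with actinomycin D (log2 fold change -0.99, SE 0.27, adjusted p = 0.0160), a call that was lost without actinomycin D 4 hpf replicate 3 (0.0659). Over time in untreated embryos it missed the threshold (0.65, adjusted p = 0.0729) and passed with the block (0.65, adjusted p = 0.0336). Both PSMA6 copies had their highest group mean in untreated embryos at 4 hpf.

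**Figure D4:**
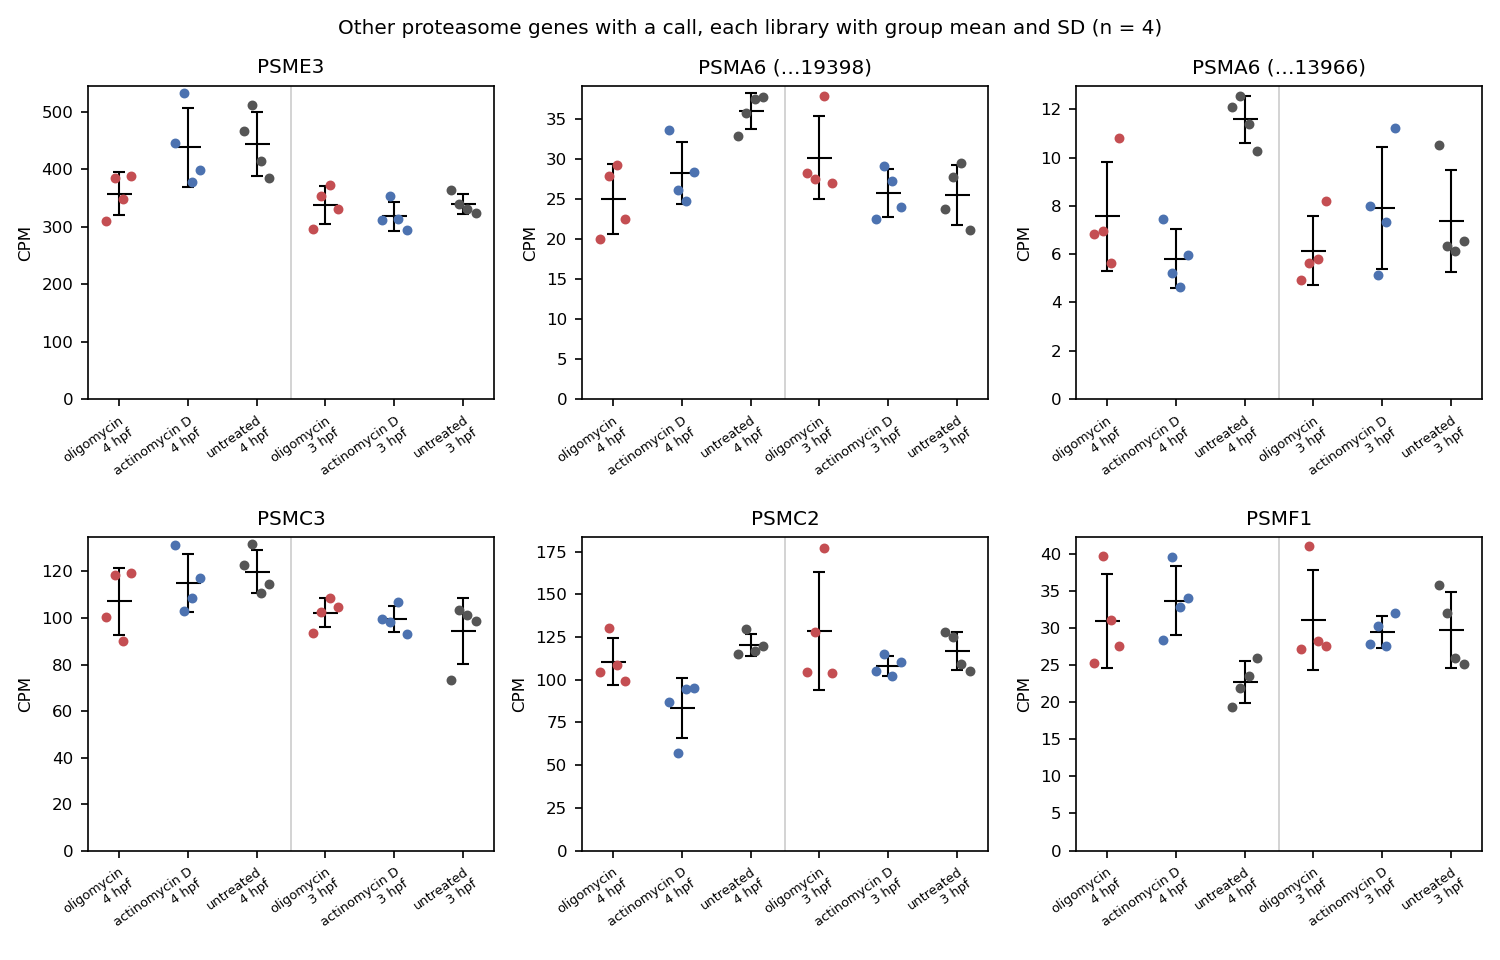
CPM (y axes, each from 0) of PSME3, both PSMA6 copies, PSMC3, PSMC2 and PSMF1 in every library, by group (x axes). Points are libraries with the group mean and SD (n = 4); the PSMA6 copy ENSDARG00000019398 lies at 20.1 to 29.3 CPM in oligomycin embryos at 4 hpf and at 32.8 to 37.7 CPM in untreated embryos at 4 hpf.

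Of the 7 ATPase genes of the base, PSMC3 rose in untreated embryos. It had 123, 132, 111 and 115 CPM in untreated embryos at 4 hpf, against 73.2, 104, 101 and 98.7 CPM in untreated embryos at 3 hpf (log2 fold change 0.34, SE 0.12, adjusted p = 0.0319). Replicate 1 at 3 hpf was far below its group, and without it the adjusted p was 0.206. Leaving out any of 6 other libraries also ended the call, namely untreated 4 hpf replicate 1 (0.113) or 2 (0.157), actinomycin D 4 hpf replicate 1 (0.0538) or 2 (0.0545), oligomycin 4 hpf replicate 2 (0.0543) or oligomycin 3 hpf replicate 3 (0.0519). So did total counts (0.136) and no filter (0.165). PSMC2 had 86.7, 57.3, 94.7 and 95.1 CPM in actinomycin D embryos at 4 hpf, against 115, 129.8, 117 and 119.8 CPM in untreated embryos at 4 hpf, and was lower with actinomycin D (log2 fold change -0.52, SE 0.16, adjusted p = 0.0264). Replicate 2 of the actinomycin D embryos was the lowest by far, although all 4 lay under the untreated libraries. The PSMC2 call was lost without untreated 4 hpf replicate 1 (0.0543), actinomycin D 4 hpf replicate 1 (0.0528), untreated 4 hpf replicate 2 (0.0884) or actinomycin D 4 hpf replicate 2 (0.127), and on total counts (0.0684). All 7 ATPase genes had negative log2 differences between actinomycin D and untreated embryos at 4 hpf, from -0.52 to -0.02, with PSMC2 the one called, where 47.1% of all genes had a negative difference. On total counts 5 of the 7 were negative and none was called. Between oligomycin and untreated embryos at 4 hpf the 7 ranged from -0.16 to 0.06, with no call. In actinomycin D embryos psmc1b was lower at 4 hpf than at 3 hpf only with the block (-0.35, adjusted p = 0.0414; without it -0.34, adjusted p = 0.227).

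Actinomycin D was set against untreated embryos to show what changed when transcription was blocked. At 4 hpf 4 of 49 members were called, 2 higher and 2 lower, or 8.16%, where 11.5% of all genes tested were called, 4.4% higher and 7.12% lower. The 2 higher members were PSMD5 and PSMF1, and the 2 lower ones were PSMC2 and the smaller PSMA6 copy. PSMF1, the proposed inhibitor of the core, had 28.4, 39.6, 32.8 and 34.0 CPM in actinomycin D embryos at 4 hpf, against 19.4, 21.9, 23.5 and 26.0 CPM in untreated embryos at 4 hpf, with no overlap (log2 fold change 0.56, SE 0.17, adjusted p = 0.0349). Its call was lost without untreated 4 hpf replicate 1 (0.149), untreated 4 hpf replicate 2 (0.0869), actinomycin D 4 hpf replicate 2 (0.118), untreated 4 hpf replicate 3 (0.0535), actinomycin D 4 hpf replicate 3 (0.0565) or actinomycin D 4 hpf replicate 4 (0.0676), without the filter (0.0527) and with DESeq2 (0.0539). The first library series alone gave 1 call, PSMC2, and the second gave 0. On total counts the 4 calls split into 3 higher and 1 lower. At 3 hpf none of the 49 was called, nor had any a raw p under 0.05, with 0.427% of all genes called, 341 at an unadjusted p under 0.05 and none of the members called by DESeq2. The change of the actinomycin D effect between the times was called for 0 members (4 at a raw p under 0.05; DESeq2 also 0), where 1.73% of all genes were called. Within actinomycin D embryos, 4 hpf against 3 hpf gave 2 calls, PSME3 higher and PSMD10 lower, or 4.08% of the members, where 10.9% of all genes were called, 3.23% higher and 7.7% lower. In the fit blocked by library set 5 members were called, adding PSMG3 and psmc1b, lower, and PSMD3, a scaffold subunit of the regulatory particle, higher (0.38, adjusted p = 0.0243; without the block 0.36, adjusted p = 0.116). The 10.9% of all genes belongs to the fit without the block.

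Oligomycin against untreated at 4 hpf called 2 of 49 members, PSMD10 higher and the larger PSMA6 copy lower. This was 4.08% of the members, where 21.4% of all genes were called, 12.3% higher and 9.05% lower. The split depended on the scaling, with 1 higher and 3 lower on DESeq2's size factors and 4 higher and 0 lower on total counts. The second library series alone gave 0 calls and the first gave 2. With the library set as a block PSME3 and PSMG1 were called lower too, and PSMG3, PSMC3IP, PSMD5 and PSMF1 higher (adjusted p from 0.0209 to 0.0473). The 21.4% of all genes belongs to the fit without the block. Among the 41 subunits, caps and inhibitor outside the chaperones and interacting proteins, 30 had a negative log2 difference, with a median of -0.12. Of all genes 53.0% had a negative difference on TMM, and their median was -0.04. On total counts 24 of the 41 were negative and the median of all genes was 0.09 higher than on TMM, so the sign of such small values rests on the scaling. The median size of the log2 difference was 0.19 for the members and 0.31 for all genes, and only PSMD10 passed a log2 difference of 1. At 3 hpf 0 members were called by edgeR or DESeq2, with 4 at a raw p under 0.05, and 0% of all genes were called, while 486 genes had a raw p under 0.05.

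The 2 inhibitors were also set against each other. Oligomycin against actinomycin D at 4 hpf called 1 of 49 members, PSMD10, higher (2.04%, where 11.9% of all genes were called and 9.79% higher). In the fit blocked by library set 3 were called, PSMD10 and PSMG3 higher and PSME3 lower, and the second series alone gave 0. The 11.9% of all genes belongs to the fit of all libraries without the block. At 3 hpf edgeR and DESeq2 called 0 members, with 4 at a raw p under 0.05, and 0.151% of all genes were called (516 at a raw p under 0.05). Oligomycin embryos at 4 hpf against those at 3 hpf also gave 0 calls by edgeR and DESeq2, with 4 members at a raw p under 0.05, and here 0.516% of all genes were called (827 at a raw p under 0.05). The change of the oligomycin effect between 4 and 3 hpf was called for 0 members by edgeR without the block and 1 by DESeq2. At a raw p under 0.05 there were 9 members, and 1.02% of all genes were called. In the edgeR fit blocked by library set PSMB5 (-0.68, adjusted p = 0.0224), the larger PSMA6 copy (-0.77, 0.0231) and PSMG1 (-0.84, 0.0322) were called. The 1.02% of all genes belongs to the fit without the block.

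The proteolytic subunits PSMB5, PSMB6 and PSMB7 and the deubiquitinase PSMD14 passed the threshold in no pairwise comparison. PSMB5, the chymotrypsin-like site, averaged 83.7 ± 15.8 CPM in oligomycin embryos at 4 hpf, 83.5 ± 12.5 CPM in actinomycin D embryos at 4 hpf and 103 ± 15.0 CPM in untreated embryos at 4 hpf (SD, n = 4 each). At 3 hpf it averaged 103 ± 23.0 CPM with oligomycin, 77.7 ± 9.60 CPM with actinomycin D and 78.8 ± 8.95 CPM untreated. Its log2 difference over time in untreated embryos was 0.38 (adjusted p = 0.0775), called only with the block (0.38, adjusted p = 0.0243). The change of the oligomycin effect on PSMB5 between the times was called by edgeR with the block (-0.68, adjusted p = 0.0224) and not without it. Between oligomycin and untreated at 4 hpf the 95% interval was -0.62 to 0.03 for PSMB5 and -0.63 to 0.42 for PSMB6, the caspase-like site. PSMB6 was a low gene, at 9.28 ± 1.62 CPM with oligomycin and 10.2 ± 3.38 CPM untreated at 4 hpf. PSMB7, the trypsin-like site, had 58.5, 43.5, 51.5 and 42.6 CPM in oligomycin embryos at 4 hpf, against 70.0, 75.9, 59.6 and 54.1 CPM in untreated embryos at 4 hpf. The log2 difference was -0.40 (95% interval -0.74 to -0.05, adjusted p = 0.0898). PSMD14 had 68.2, 92.3, 81.8 and 61.2 CPM in oligomycin embryos at 4 hpf, against 82.5, 113, 82.4 and 76.7 CPM in untreated embryos at 4 hpf (-0.22, 95% interval -0.58 to 0.14, adjusted p = 0.396). These intervals are not adjusted for the number of genes, and each reaches past -0.5, so equal levels are not shown.

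The immune-type subunits were close to absent at both stages. PSMB8, PSMB9 and PSMB10, the interferon-inducible replacements of the catalytic subunits in vertebrates, had 10, 22 and 117 counts summed over all 24 libraries. The genes psmb12, psmb13a, PSMB11 and psmb11b had 57, 2, 3 and 0 counts, and the cap subunits PSME1 and PSME2 had 43 and 5. With the alpha ring relative psma6l (36 counts), these were the 10 identifiers left out by the level rule, and none passed the filter for the fit. Just inside the rule stood PSMG2 at a mean of 5.02 CPM, PSME4 (ENSDARG00000087911) at 7.48 and PSMA6 (ENSDARG00000013966) at 7.65, here on total counts. Just outside were PSMB10 at 1.91, psmb12 at 0.921 and PSME1 at 0.701.

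Zebrafish keep duplicated genes for several subunits, and 6 pairs of copies and the 2 identifiers named PSMD2 were among the members. Reads of near-identical copies can be split wrongly between them, so the shares of a pair are uncertain. They are given as the share of the pair's summed counts that fell on the copy named, with no test. PSMD4, the ubiquitin receptor of the regulatory particle, was the pair whose balance differed most between groups. Its copy PSMD4 (ENSDARG00000101295) took 56.5%, 53.1%, 59.4% and 55.0% in oligomycin embryos at 4 hpf, 57.8%, 69.2%, 63.2% and 64.2% in actinomycin D embryos and 44.1%, 40.0%, 48.0% and 52.0% in untreated embryos, the rest falling on psmd4b. All untreated libraries lay under all treated ones at 4 hpf. At 3 hpf the mean shares were 56.9% ± 4.61 with oligomycin, 59.4% ± 4.66 with actinomycin D and 59.1% ± 8.51 untreated (SD, n = 4 each). In the fit PSMD4 had log2 differences of 0.39 (adjusted p = 0.121) for oligomycin and 0.50 (adjusted p = 0.0756) for actinomycin D against untreated at 4 hpf. With the block the actinomycin D difference passed (0.50, adjusted p = 0.0279). The copy psmd4b had -0.16 (adjusted p = 0.659) and -0.47 (adjusted p = 0.252) in the same comparisons.

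The other pairs kept their larger copy in nearly all libraries. PSMA2 took 70.0% to 79.5% of its pair with psma2a over the 24 libraries, and PSMD11 (ENSDARG00000060150) took 70.2% to 84.9% of its pair with ENSDARG00000005134. PSME4 (ENSDARG00000018742) took 90.5% to 96.1% of its pair with ENSDARG00000087911, and PSMA6 (ENSDARG00000019398) took 67.6% to 86.8%. PSMC1 was the smaller copy in all libraries but 1, with 28.5% to 52.2% beside psmc1b. The 2 identifiers named PSMD2, ENSDARG00000099653 and ENSDARG00000103190, were close to even, the first of them taking 49.0% to 68.6%. Whether they are copies or 1 gene listed under both is not settled, since the RefSeq gene table lists a single psmd2.

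The 2 genes that carry the prefix but code for no subunit are accounted for apart. PSMC3IP, a factor of meiotic recombination in mammals, had 23.3, 29.5, 19.5 and 19.2 CPM in untreated embryos at 4 hpf, against 37.0, 38.4, 35.3 and 30.5 CPM in untreated embryos at 3 hpf, and fell without loss under any left-out library (log2 fold change -0.64, SE 0.17, adjusted p = 0.00529). PSME3IP1, a partner of PSME3, was called in no comparison. In the fit without the block, 11 of the 49 members were called in at least 1 of the 9 pairwise comparisons, and the other 38 in none. With library set as a block, PSMG1, PSMB5, PSMD3, psmc1b and PSMD4 were called as well, in comparisons that were read as pairing. The 7 beta ring genes lay between -0.40 and 0.23 on the log2 scale in oligomycin against untreated at 4 hpf, between -0.43 and 0.14 in actinomycin D against untreated, and between -0.14 and 0.39 in untreated 4 hpf against 3 hpf. The 14 psmd genes outside the chaperones spanned -0.32 to 0.39, -0.47 to 0.50 and -0.30 to 0.39 in the same comparisons.

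Genes around the proteasome were read from a list of 42 names: ubiquitin genes, activating enzymes, shuttle factors, the segregase VCP with its adaptors, and the transcription factors of the proteasome recovery pathway. Of these 34 names matched 36 identifiers, and 34 identifiers were tested. In oligomycin against untreated at 4 hpf 7 of 34 were called, 2 higher and 5 lower (20.6%, near the 21.4% of all genes). In untreated 4 hpf against 3 hpf 11 were called, 7 higher and 4 lower (32.4%, beside 27.4% of all genes). The rise of uba1, the main ubiquitin-activating enzyme (0.26, adjusted p = 0.0491), and that of rad23ab, a shuttle factor (0.39, adjusted p = 0.0222), were among them, as was the fall of UCHL5, a deubiquitinase that binds the regulatory particle in mammals (-0.43, adjusted p = 0.0419). The genes ubb, UBQLN4 and FAF2 rose as well, by 1.55, 0.72 and 0.51 on the log2 scale with DESeq2, and no left-out library removed these calls. On total counts the calls were 3 higher and 4 lower, as FAF1 (0.183), uba1 (0.263), rad23ab (0.0743) and ECPAS (0.171, adjusted p in brackets) missed the threshold. Without the filter 6 were called, in each library series alone 4, with the block 15 and with 1 library left out 6 to 10. Of the 24 fits with 1 library left out, uba1 lost its call in 22, FAF1 in 19, ECPAS in 10, UCHL5 in 5, rad23ab in 4 and zfand5a in 3. In oligomycin against untreated at 4 hpf total counts gave 3 higher and 3 lower, and 1 library left out gave 4 to 7 calls. The other comparisons called between 0 and 3. The shares of all genes given here belong to the fit of all libraries with TMM, the filter and no block. They are therefore not the shares to set beside the counts under other settings.

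ZFAND2B, a zinc finger protein that binds the proteasome at the endoplasmic reticulum in mammals, was the most clearly changed of them with oligomycin, by its p. It had 152, 155, 169 and 115 CPM in oligomycin embryos at 4 hpf, 108, 87.0, 127 and 97.5 CPM in actinomycin D embryos at 4 hpf and 79.9, 76.5, 96.4 and 85.3 CPM in untreated embryos at 4 hpf. All oligomycin libraries lay above all untreated ones, and the gene was higher (log2 fold change 0.80, SE 0.15, adjusted p = 0.000564). It fell over time in untreated embryos (-0.84, adjusted p = 0.000201), and both calls held with any 1 library left out. In actinomycin D embryos ZFAND2B fell as well (-0.57, adjusted p = 0.0143), a call lost in 2 of the fits with 1 library left out. The gene nfe2l2b, a zebrafish relative of NRF2, had 10.8, 10.2, 6.35 and 11.4 CPM in oligomycin embryos at 4 hpf, against 4.32, 3.76, 5.89 and 6.16 CPM in untreated embryos at 4 hpf, and was higher (log2 fold change 0.91, SE 0.26, adjusted p = 0.0129). With oligomycin it averaged 9.45 CPM at 3 hpf and 9.70 CPM at 4 hpf. Untreated embryos went from 11.2 CPM to 5.03 CPM, a fall that was called with any 1 library left out. In actinomycin D embryos nfe2l2b fell too (-0.80, adjusted p = 0.0391), a call lost in 7 of the fits with 1 library left out. The low gene nfe2l1b, also on the list, averaged 2.59 CPM with oligomycin and 4.51 CPM untreated at 4 hpf, and was not called between them. POMP, the maturation factor of the core, was at a log2 difference of -0.06 (adjusted p = 0.781).

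The 5 lower genes included a shuttle, adaptors and a ubiquitin gene. UBQLN4, which carries ubiquitinated proteins to the proteasome, had 138, 122, 129.8 and 163 CPM in oligomycin embryos at 4 hpf, against 237, 193, 196 and 189 CPM in untreated embryos at 4 hpf, without overlap (log2 fold change -0.56, SE 0.11, adjusted p = 0.000858). FAF2, an adaptor of VCP, had 279, 332, 318 and 301 CPM in oligomycin embryos at 4 hpf, against 421, 470.3, 420.1 and 415 CPM in untreated embryos at 4 hpf, also without overlap (log2 fold change -0.49, SE 0.11, adjusted p = 0.00201). Both calls held with any 1 library left out. Untreated embryos at 3 hpf averaged 126 CPM of UBQLN4 and 308 CPM of FAF2, beside 138 CPM and 307 CPM in oligomycin embryos at 4 hpf. Both genes rose over time in untreated embryos, and so did ubb, which averaged 17.6 CPM untreated at 3 hpf and 27.2 CPM with oligomycin at 4 hpf. The polyubiquitin gene ubb (ENSDARG00000093313) had 17.2, 39.7, 22.2 and 29.4 CPM in oligomycin embryos at 4 hpf, against 62.2, 63.3, 40.5 and 36.0 CPM in untreated embryos at 4 hpf (log2 fold change -0.89, SE 0.24, adjusted p = 0.00991). Its repeats resemble those of the other ubiquitin genes, so its counts are uncertain, and the call was lost without untreated 4 hpf replicate 1 (0.0645), oligomycin 4 hpf replicate 1 (0.0521) or untreated 4 hpf replicate 2 (0.0579). Its 2 highest untreated libraries, replicates 1 and 2, were also the 2 with the highest zygotic sums (2463 and 2462 CPM, beside 1411 and 1339 CPM in replicates 3 and 4), and the part of stage in this difference was not tested. Larger ubiquitin entries were not called between these groups. The entry UBB (ENSDARG00000002369) averaged 289 CPM with oligomycin and 355 CPM untreated at 4 hpf. For ubc the means were 1059 CPM and 1326 CPM. FAF1 (-0.33, adjusted p = 0.0303) and the proteasome adaptor ECPAS (-0.34, adjusted p = 0.0337) were lower by less. Neither was called on total counts or without the filter (adjusted p of 0.114 to 0.221). The FAF1 call was lost without untreated 3 hpf replicate 1 (0.0599), untreated 4 hpf replicate 1 (0.179), actinomycin D 4 hpf replicate 1 (0.0629), untreated 3 hpf replicate 2 (0.0623), untreated 4 hpf replicate 2 (0.125), actinomycin D 4 hpf replicate 2 (0.0542), oligomycin 4 hpf replicate 2 (0.188) or oligomycin 3 hpf replicate 3 (0.0525). The ECPAS call was lost without actinomycin D 4 hpf replicate 1 (0.0704), oligomycin 4 hpf replicate 1 (0.0886), untreated 4 hpf replicate 2 (0.109), actinomycin D 4 hpf replicate 2 (0.0593), oligomycin 4 hpf replicate 2 (0.106), oligomycin 3 hpf replicate 3 (0.0537), untreated 4 hpf replicate 3 (0.0923), untreated 4 hpf replicate 4 (0.0670) or oligomycin 4 hpf replicate 4 (0.0631).

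With transcription blocked, ubb and UBQLN4 were lower at 4 hpf too. Against untreated embryos the log2 difference was -1.28 (adjusted p = 0.000502) for ubb and -0.47 (adjusted p = 0.00335) for UBQLN4. These were the 2 calls of that comparison among the 34 genes (5.88%), where 11.5% of all genes were called, 7.12% lower. The larger entry UBB was not called there (-0.34, adjusted p = 0.0754). FAF2 was not called there (-0.12, adjusted p = 0.637). It averaged 397 CPM with actinomycin D at 4 hpf and 320 CPM with actinomycin D at 3 hpf, a difference that was not called (0.31, adjusted p = 0.0644). ZFAND2B and nfe2l2b were at 0.31 (adjusted p = 0.244) and 0.26 (adjusted p = 0.735) in actinomycin D against untreated at 4 hpf. Between oligomycin and actinomycin D at 4 hpf 3 of the 34 were called, 2 higher and 1 lower (8.82%, beside 11.9% of all genes). There zfand5a, another zinc finger protein that binds the proteasome, had 235, 217, 243 and 199 CPM with oligomycin, against 124, 106, 143 and 162 CPM with actinomycin D. It was higher (log2 fold change 0.74, SE 0.15, adjusted p = 0.00201), and within actinomycin D embryos it fell over time (-0.83, adjusted p = 0.00127). ZFAND2B was higher and FAF2 lower, at 0.51 (adjusted p = 0.0233) and -0.35 (adjusted p = 0.0358) in edgeR with DESeq2's size factors. With 1 library left out these calls were lost in 5 and 6 fits. These comparisons share libraries with those above, and of all calls named for the list in the treatment comparisons at 4 hpf none held in the second library series alone (adjusted p from 0.0594 to 0.817).

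**Figure D5:**
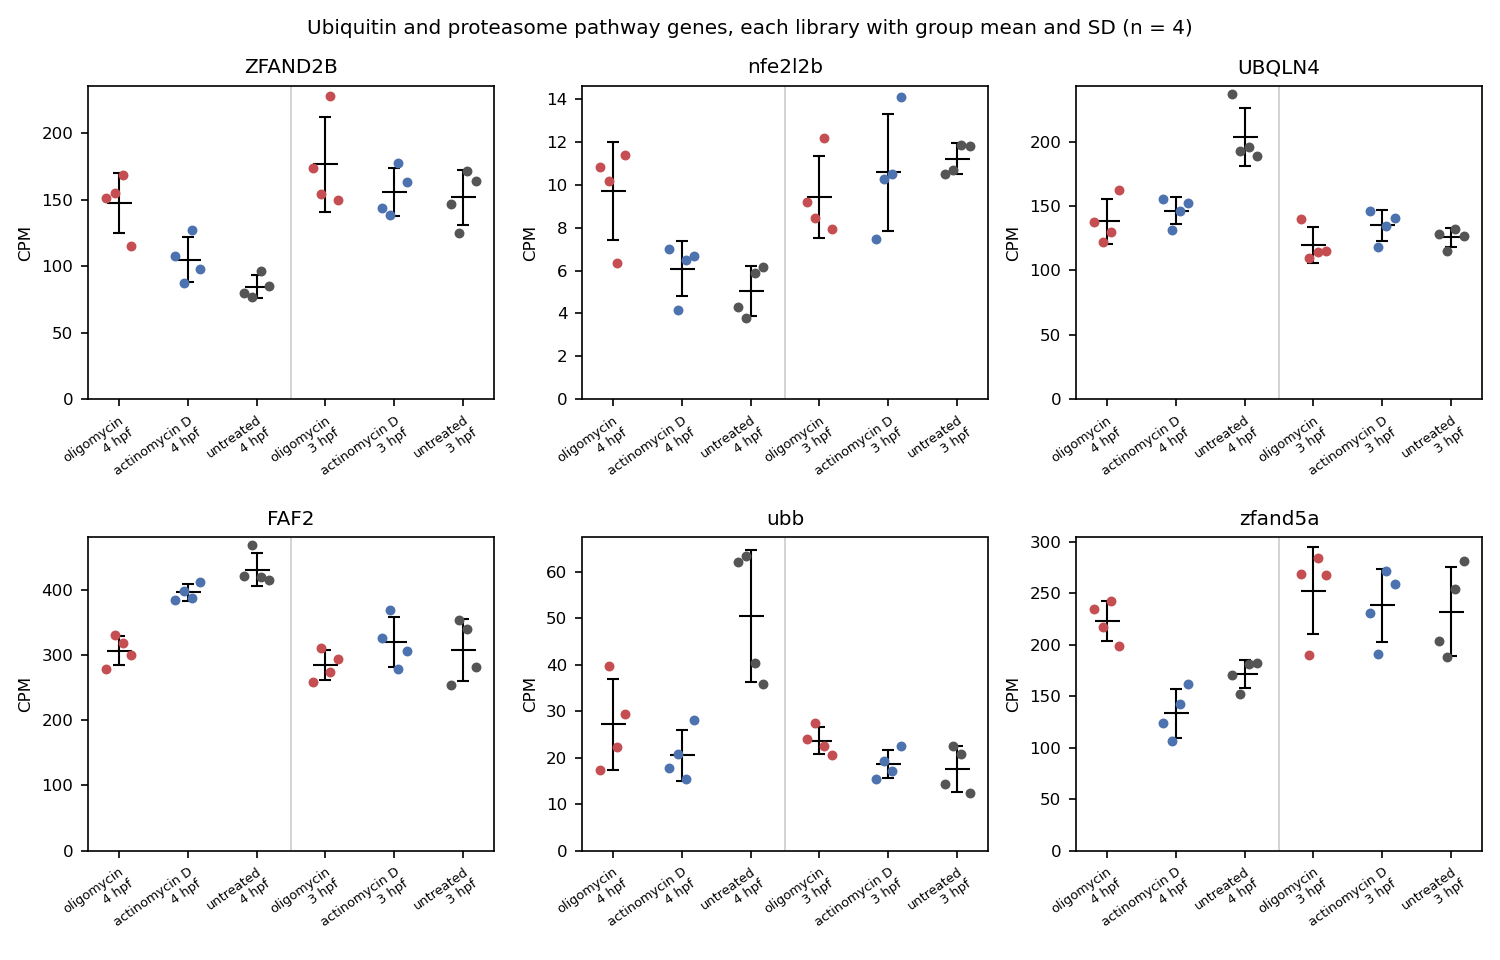
CPM (y axes, each from 0) of 6 genes around the proteasome in every library, by group (x axes), with the group mean and SD (n = 4). ZFAND2B, nfe2l2b and zfand5a have higher means in oligomycin than in untreated embryos at 4 hpf, and UBQLN4, FAF2 and ubb have lower ones; the zfand5a difference from untreated was not called (adjusted p = 0.0707).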

How the data were processed

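Total RNA of whole embryos was read with the QuantSeq 3′ kit, per the labels' protocols. The deposited values are raw counts per Ensembl gene identifier, not normalised by the authors. The submitters' processing notes name Bowtie2 2.3.4.1, Subread 1.6.2, featureCounts and the zebrafish build GRCz11, and the strand setting is not given in the sources used here. Symbols came from a table of gene identifiers, which named 29201 of 32520. Counts were fitted with edgeR 4.0.16 (quasi-likelihood, robust, 1 mean for each of 6 groups, TMM scaling, filterByExpr by group), which left 11238 genes, in R 4.3.3. Adjusted p-values are Benjamini-Hochberg values over all genes tested, and a call is an adjusted p under 0.05. The same fit gave 9 pairwise comparisons and 2 tests of whether a treatment effect changed between the times. CPM in the text are TMM-scaled, while membership used CPM on total counts. The script was tested on simulated data.

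Library totals of 1453642 to 3431533 counts leave a median SE of 0.16 to 0.17 on the log2 scale for a member in a pairwise comparison. No 2 libraries were copies of each other. The 24 libraries fall into 4 sets of 6 neighbouring library numbers, with gaps between the numbers and 1 library of each group, which the labels do not explain. Deviations from the group means correlated above 0.1 within every set in 7 of 9 pairwise comparisons, which was read as pairing, but not in oligomycin against untreated at 3 hpf or at 4 hpf. A difference between the library series also enters these deviations, and correlations between libraries of different sets were not computed. The check therefore cannot tell a shared set from a shared series. Alternatives were DESeq2 1.42.0 as a test, its size factors or total counts as scaling, no filter, the set as a block, each library series alone and each of 24 libraries left out. Series and left-out libraries were added for the summed share after the data were seen. Named were all members called in untreated 4 hpf against 3 hpf or oligomycin against untreated at 4 hpf, up to 2 per class and direction elsewhere, the catalytic and immune-type subunits, the gene copies, the identifiers around the level threshold and the genes of the pathway list called in oligomycin against untreated at 4 hpf. PSMD3, psmc1b, POMP, zfand5a, uba1, rad23ab, UCHL5 and other genes that missed the threshold were named after their values were seen. Members and lists were chosen with earlier results of these data known.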

Additional observations from a re-analysis of the deposited data

Results flagged for a closer look

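In groups of 4 libraries, 1 library was set apart from the other 3 where its gap exceeded Dixon's 95% limit for the share of the group's range, tested for the 11 members called in the fit and for the summed share of the members. This picked out 6 of 72 groups, where chance picks about 1 in 20. PSMD10 stood at 86.7 CPM in oligomycin 3 hpf replicate 3, above 47.9 to 53.6 CPM in the other 3 libraries. In the same shallow library the PSMA6 copy ENSDARG00000019398 stood at 37.9 CPM, above 27.0 to 28.2 CPM. PSMF1 stood at 41.1 CPM in oligomycin 3 hpf replicate 2, above 27.2 to 28.3 CPM. PSMG3 stood at 39.2 CPM in oligomycin 4 hpf replicate 2, above 18.8 to 21.6 CPM. The PSMA6 copy ENSDARG00000013966 stood at 10.5 CPM in untreated 3 hpf replicate 1, above 6.12 to 6.54 CPM. PSMC3 stood at 73.2 CPM in that library, below 98.7 to 104 CPM.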

How the results depend on the processing

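No called member or called gene of the pathway list changed sign under any alternative run. Log2 ratios of the summed share that lay near 0 changed sign under some, and so did small uncalled differences and, in some comparisons, the median of all genes on total counts. The calls are few, so their counts move easily. Shares of all genes called are given in this text for the fit with TMM and no block only. Counts of calls under the other settings therefore have no such share beside them. In untreated 4 hpf against 3 hpf the 8 calls became 5 without the filter, 1 in each library series, 11 with the replicate block and 4 to 8 with 1 library left out. In oligomycin against untreated at 4 hpf the 2 calls became 4 with DESeq2's size factors, 4 on total counts, 1 without the filter, 0 in the second series and 1 to 5 with 1 library left out. With the library set as a replicate block they became 8. PSME3 (adjusted p = 0.0209) and PSMG1 (0.0286) were added as lower, and PSMG3 (0.0237), PSMC3IP (0.0445), PSMD5 (0.0456) and PSMF1 (0.0473) as higher. The rule used did not read the sets as pairing there, since the lowest correlation within a set was 0.076, under the limit of 0.1. The median over the sets was 0.33, beside 0.36 in actinomycin D against untreated at 4 hpf, which was read as pairing. The rule alone therefore does not set these calls aside. In actinomycin D against untreated at 4 hpf the 4 calls became 1 in the first series, 0 in the second and 2 to 5 with 1 library left out. In actinomycin D 4 hpf against 3 hpf the 2 calls became 5 with the replicate block, 0 in each series and 0 to 3 with 1 library left out. In oligomycin against actinomycin D at 4 hpf the 1 call became 3 with the replicate block, 0 in the second series and 1 to 2 with 1 library left out. The change of the oligomycin effect gave 1 call with DESeq2 and 3 with the replicate block (PSMB5 0.0224, the larger PSMA6 copy 0.0231 and PSMG1 0.0322, all negative), in place of 0. The summed share moved with TMM in place of total counts, to log2 ratios of -0.11 for oligomycin over untreated at 4 hpf and 0.13 for untreated 4 hpf over 3 hpf. The causes were not tested. The block changed no call of a member other than those given here and in the results. Each call of a member or of a gene of the pathway list was counted once in every alternative fit. With 1 library left out 892 of these counts kept the call and 164 lost it, and under the other settings 213 kept it and 95 lost it. Values that were not called are not in these counts. Depth limits the low members: PSMG2, PSMD9, PSMB6, PSMA1, the smaller PSMA6 copy and the PSME4 copy ENSDARG00000087911 rest on under 20 CPM in every library.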
